A study of Mus musculus with 8 samples.

Results

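The transcriptional regulators of cardiac fatty acid oxidation and mitochondrial biogenesis were followed as 10 genes in 8 heart libraries: the receptors Ppara, Ppard and Pparg with their partner Rxra, the coactivators Ppargc1a and Ppargc1b, the receptors Esrra and Esrrg, and the factors Nrf1 and Tfam. They were chosen by name for their place in this pathway, 10 of the 25929 genes listed, and all 10 were among the 14442 genes tested. Hearts of wild-type (WT) mice and of littermates with the fat-1 transgene, a C. elegans desaturase that makes n-3 from n-6 polyunsaturated fatty acids, were compared after a sham operation, in which the chest was opened without constriction, or after transverse aortic constriction (TAC), which loads the heart with pressure. Each of the 4 groups, WT-Sham and Fat1-Sham, WT-TAC and Fat1-TAC, held 2 libraries, described as independent samples, and the mice were 3 months old when operated. The authors give the length of constriction as 8 weeks. The labels give the strain of the WT mice as C57BL/6. The promoter and the cells that drive the transgene are not given in the sources used here, and the fat-1 mRNA itself was not analysed here. Levels are given in FPKM (fragments scaled to gene length and library depth), and libraries are named by group and replicate number.

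PPARα, PPARδ and PPARγ are nuclear receptors that bind fatty acids and their derivatives and sit on DNA as pairs with a retinoid X receptor. The estrogen-related receptors ERRα and ERRγ have no known natural hormone and bind DNA as well, and PGC-1α and PGC-1β attach to both families and raise the output of their target genes. In the heart, a tissue that lives mainly on fatty acids, PPARα and the ERRs drive genes of fatty acid oxidation and the respiratory chain, NRF1 drives nuclear genes for mitochondrial proteins, and TFAM carries that programme into the mitochondrion, where it packs and transcribes mitochondrial DNA.

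WT-TAC1 stood apart from the other libraries. The summed FPKM of 9 cardiomyocyte genes was 24060 there and 44035 to 58153 in the other 7 libraries, the sum of 6 thymocyte genes was 1184 against 0.607 to 1.90, and that of 4 fast skeletal muscle genes was 127 against 1.75 to 5.95. Airway epithelium genes summed to 3557 FPKM in WT-TAC2, to 1415 in WT-TAC1, to 45.7 in Fat1-Sham1, and to 0.708 to 2.74 elsewhere. A fat-1 TAC library differed from its replicate too: 4 B cell genes summed to 209 FPKM for Fat1-TAC2 but 8.84 for Fat1-TAC1. The B cell sum was 384 and 212 for the WT-TAC replicates and 6.36 to 9.38 over the sham libraries. For 4 alveolar genes, WT-TAC1 had a sum of 91.9 FPKM, Fat1-Sham1 35.9 and WT-TAC2 3.88, and no other library exceeded 0.552. The share of each cell type in the tissue and the RNA per cell cannot be told apart in such libraries. Depth, recovered from the FPKM values as whole fragments, was 14163994 to 21218331 fragments, and the regulators were covered by 134 (Nrf1 in WT-Sham1) to 4032 fragments (Esrra in Fat1-Sham2).

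RefSeq promoter windows on GRCm38.p6, from 250 bases before to 50 after a start site, were found for 9 of the 10 genes, 16 windows in all. They are shown for Ppargc1a, the coactivator with the larger log2 fold change with TAC averaged over the genotypes. They are also shown for Pparg, whose WT-TAC values each exceeded those of every other group. Also shown are the windows that held the nuclear receptor hexamer, and those of Ppara and Tfam, which matched the motif of another regulator. Capitals mark a motif match, and a match describes letters only. The window of Ppargc1a, chr5:51567676-51567975 on the minus strand, held none of the 6 motifs searched on both strands, among them the CRE TGACGTCA, which 1.79% of all 32851 windows hold.
Ppargc1a: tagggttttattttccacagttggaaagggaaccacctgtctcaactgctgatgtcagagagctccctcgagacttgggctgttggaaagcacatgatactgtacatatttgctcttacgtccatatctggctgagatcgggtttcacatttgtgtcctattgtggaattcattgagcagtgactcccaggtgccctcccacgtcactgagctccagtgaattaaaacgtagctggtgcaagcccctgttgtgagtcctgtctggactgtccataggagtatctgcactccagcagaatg
Pparg had AGGTCA, the hexamer bound by nuclear receptors, 28 bases before the start in the window chr6:115360894-115361193 and 9 bases before it in the window chr6:115362099-115362398, both on the plus strand. The latter also had the TATA box letters TATAAA on the opposite strand.
Pparg, upstream window: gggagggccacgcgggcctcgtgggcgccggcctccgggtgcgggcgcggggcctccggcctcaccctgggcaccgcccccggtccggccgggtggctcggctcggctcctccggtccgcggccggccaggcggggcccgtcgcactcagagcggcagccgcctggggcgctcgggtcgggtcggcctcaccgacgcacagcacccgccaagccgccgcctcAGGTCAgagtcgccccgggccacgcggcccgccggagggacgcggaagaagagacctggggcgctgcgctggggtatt
Pparg, downstream window: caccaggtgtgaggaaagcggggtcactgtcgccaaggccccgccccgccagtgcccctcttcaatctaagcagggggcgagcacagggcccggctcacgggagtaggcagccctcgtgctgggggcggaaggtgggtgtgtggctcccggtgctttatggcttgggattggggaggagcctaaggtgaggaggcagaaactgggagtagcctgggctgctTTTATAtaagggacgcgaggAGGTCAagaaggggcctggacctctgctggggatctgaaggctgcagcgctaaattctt
Rxra had the hexamer in the window chr2:27709042-27709341 on the plus strand, 48 bases before the start on that strand and 87 bases before it on the opposite one.
Rxra: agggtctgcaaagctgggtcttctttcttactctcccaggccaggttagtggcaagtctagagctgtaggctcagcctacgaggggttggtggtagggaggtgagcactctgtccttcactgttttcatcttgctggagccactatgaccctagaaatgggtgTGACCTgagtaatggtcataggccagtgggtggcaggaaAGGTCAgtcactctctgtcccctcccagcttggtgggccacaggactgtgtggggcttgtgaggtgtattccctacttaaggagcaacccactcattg
Ppara, in the window chr15:85735526-85735825 on the plus strand, had the NRF1 core GCGCATGCG 31 bases before the start, on both strands as 1 overlapping palindrome.
Ppara: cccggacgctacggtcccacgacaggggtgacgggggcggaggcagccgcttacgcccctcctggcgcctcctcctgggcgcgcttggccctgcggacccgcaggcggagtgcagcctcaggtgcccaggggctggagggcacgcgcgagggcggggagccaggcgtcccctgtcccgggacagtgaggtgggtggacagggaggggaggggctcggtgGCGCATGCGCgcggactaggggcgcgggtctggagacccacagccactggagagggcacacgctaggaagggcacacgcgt
Tfam, in the window chr10:71237995-71238294 on the minus strand, had the ETS letters CTTCCGG of GABP on the opposite strand, 47 bases before the start.
Tfam: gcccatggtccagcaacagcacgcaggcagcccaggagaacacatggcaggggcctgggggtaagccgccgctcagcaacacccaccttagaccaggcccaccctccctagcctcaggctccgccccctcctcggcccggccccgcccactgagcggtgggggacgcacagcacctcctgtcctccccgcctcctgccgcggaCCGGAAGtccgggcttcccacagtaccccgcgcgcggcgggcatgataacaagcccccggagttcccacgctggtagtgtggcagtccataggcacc

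AGGTCA was in 3 of the 16 windows and in 16.3% of all windows, and the NRF1 core was in 1 of the 16 and in 1.75% of all. The ETS letters were in 1 of 16 against 8.86%, and TATAAA was in 3 of 16 against 13.6%. The full ERR element TCAAGGTCA, held by 0.423% of all windows, was in 0 of the 16.

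In the 4 sham libraries the regulators spanned a wide range of levels. Esrra was the most abundant at 203 FPKM ± 20.3 (SD, n = 4), followed by Ppargc1a at 48.2 ± 16.6, Rxra at 36.0 ± 3.16, Ppara at 33.4 ± 4.85, Tfam at 31.2 ± 2.14 and Ppard at 20.7 ± 0.521. Esrrg at 11.6 ± 0.523, Pparg at 11.3 ± 1.31, Ppargc1b at 9.68 ± 2.19 and Nrf1 at 6.53 ± 0.998 were lowest. The ranges of Ppargc1a, Rxra, Ppara and Tfam overlapped one another, as did those of Esrrg, Pparg and Ppargc1b, so the order inside these runs is not fixed by these libraries. FPKM depends on the gene length the authors used, which was 924 bases for Esrra and 3040 for Ppargc1a. Recomputed per kilobase of the longest coding transcript, the order was the same except that Ppargc1b passed Pparg.

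**Figure D1:**
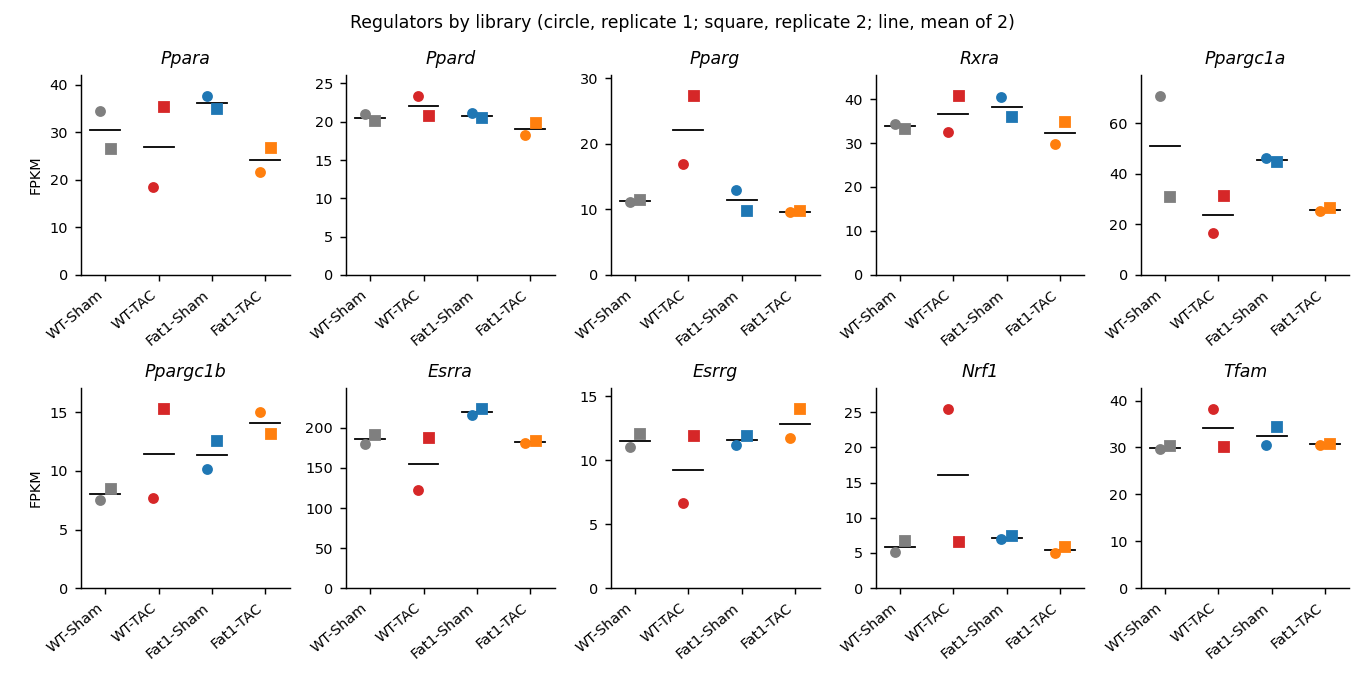
FPKM (y axes from 0, one scale per gene) of the 10 regulators in the 4 groups (x axis), with a point for each library and a line at the mean of 2. Ppargc1a lay between 16.5 and 31.2 in the TAC libraries and between 30.9 and 70.8 in the sham libraries, Pparg was highest in both WT-TAC libraries, and Nrf1 was high in WT-TAC1 alone.

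None of the 10 genes was called in any of the 7 comparisons made with limma, where a call needed a Benjamini-Hochberg adjusted p under 0.1 over all tested genes and a fold change over 1.5. Few genes of any kind were called, 0.935% in WT-TAC versus WT-Sham, 0.00692% in Fat1-TAC versus Fat1-Sham, 1.43% in Fat1-TAC versus WT-TAC, 0% in Fat1-Sham versus WT-Sham, 0.0692% for the interaction of genotype and surgery, 0% for TAC against sham averaged over the genotypes and 0.0415% for fat-1 against WT averaged over the surgeries. With the fold change kept and an unadjusted p under 0.05, 2 regulators passed in WT-TAC versus WT-Sham (Pparg higher, Ppargc1a lower; 23.8% of all genes), 1 in Fat1-TAC versus WT-TAC (Pparg lower; 25.2%), 1 for the interaction (Pparg; 6.99%) and 1 for TAC averaged over the genotypes (Ppargc1a lower; 8.13%). Counts were 0 of 10 in Fat1-TAC versus Fat1-Sham (1.86% of all genes), in Fat1-Sham versus WT-Sham (0.893%) and for fat-1 averaged over the surgeries (7.69%). Fitting the recovered fragments with limma-voom also called 0 of 10 in each comparison. The comparisons WT-TAC versus WT-Sham and Fat1-TAC versus WT-TAC share the WT-TAC libraries. The p-values rest on 1 spread per gene, pooled over all groups with 2 samples each and moderated toward genes of like level. They do not measure the spread of the compared groups alone. An exact permutation test of 2 against 2 cannot go under 0.333.

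**Figure D2:**
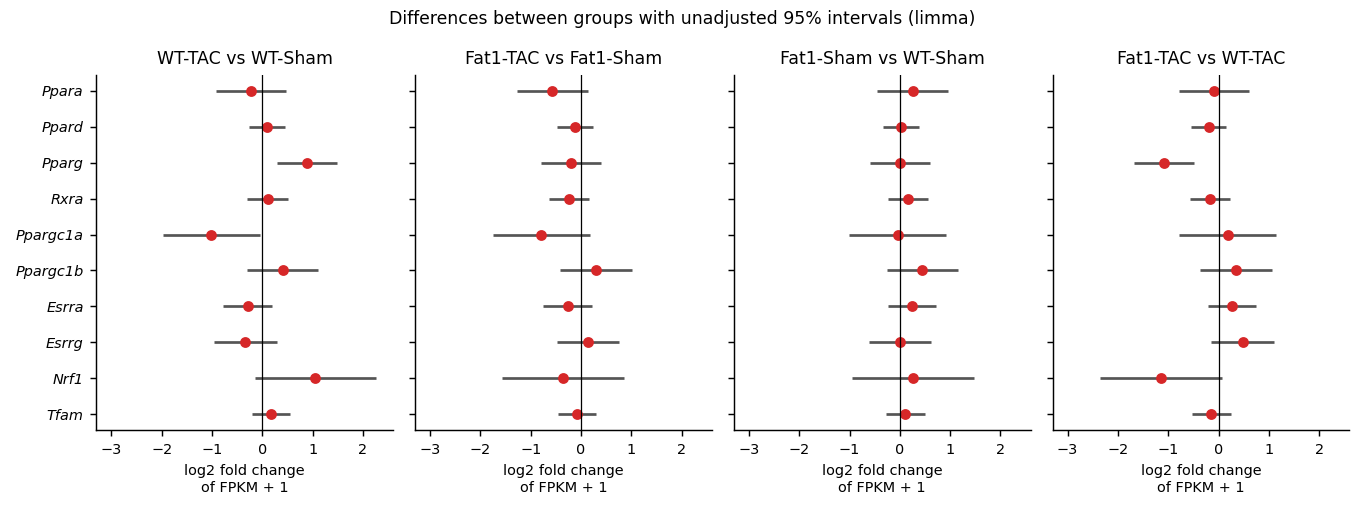
Log2 fold change of FPKM + 1 (x axis) of the 10 regulators in 4 comparisons, with unadjusted 95% intervals from limma as bars. The intervals of Pparg (WT-TAC versus WT-Sham and Fat1-TAC versus WT-TAC) and of Ppargc1a (WT-TAC versus WT-Sham) lie off 0, and those of the other genes shown cross it.

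Neither coactivator was called with TAC. Ppargc1a (chr5:51454250-51567726, minus strand) encodes PGC-1α, the inducible coactivator that couples energy demand to mitochondrial output. Its FPKM was 70.8 and 30.9 in the WT-Sham libraries, 46.2 and 44.9 in Fat1-Sham, 16.5 and 31.2 in WT-TAC, and 25.2 and 26.6 in Fat1-TAC. The highest TAC library and the lowest sham library were almost level, the only contact between the surgeries, and within fat-1 hearts the groups did not overlap. The log2 fold change (of FPKM + 1, a scale that understates changes of low genes) was -0.90 with an SE of 0.29 when averaged over the genotypes (adjusted p = 0.276, limma with Benjamini-Hochberg adjustment). In WT hearts alone it was -1.01 (SE 0.41, limma adjusted p = 0.179) and in fat-1 hearts alone -0.79 (SE 0.41, limma adjusted p = 1), and the interaction of 0.22 (SE 0.58, limma adjusted p = 0.835) had an unadjusted 95% interval from -1.14 to 1.59. Single libraries set the size in WT hearts: the log2 fold change was -0.57 without WT-TAC1 and -0.43 without WT-Sham1.

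Ppargc1b encodes PGC-1β, the related coactivator that is less responsive to acute stimuli. Its FPKM was 7.55 and 8.48 in WT-Sham, 10.2 and 12.5 in Fat1-Sham, 7.70 and 15.3 in WT-TAC, and 15.1 and 13.2 in Fat1-TAC. Both WT-Sham libraries were among the lowest 3, and both Fat1-TAC libraries among the highest 3. The averaged difference with TAC was 0.35 on the log2 scale (SE 0.21, limma adjusted p = 0.369). Leaving out WT-TAC1 gave 0.58, leaving out WT-TAC2 gave 0.12, and median-of-ratios scaling gave 0.12. Averaged over the surgeries, fat-1 hearts exceeded WT hearts by 0.40 (SE 0.21, limma adjusted p = 0.366), by 0.17 without WT-TAC1, by 0.62 without WT-TAC2 and by 0.12 after scaling to cardiomyocyte genes. The difference was 0.45 in sham hearts alone (SE 0.30, limma adjusted p = 1).

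The balance of the coactivators separated the surgeries in every library. The FPKM ratio of Ppargc1a to Ppargc1b was 9.39 and 3.65 in WT-Sham, 4.54 and 3.58 in Fat1-Sham, 2.14 and 2.05 in WT-TAC, and 1.67 and 2.01 in Fat1-TAC. All TAC libraries were at or under 2.14 and all sham libraries at or over 3.58, and a ratio within a library does not depend on how the library is scaled. The ratio was picked after the values were seen, so it carries no test. Of the 45 ratios between 2 of the 10 genes, 6 separated all TAC from all sham libraries, and 4 of these held Ppargc1a. Against all 13928 tested genes above 0 in every library, the ratio of Ppargc1a to the other gene was lower in all TAC than in all sham libraries for 45.7%. For Ppargc1b as numerator, the ratio was higher in all TAC libraries for 5.39%. The remaining ratios that separated were Ppara to Ppargc1b, lower with TAC, and Ppargc1b to Esrra, higher with TAC.

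**Figure D3:**
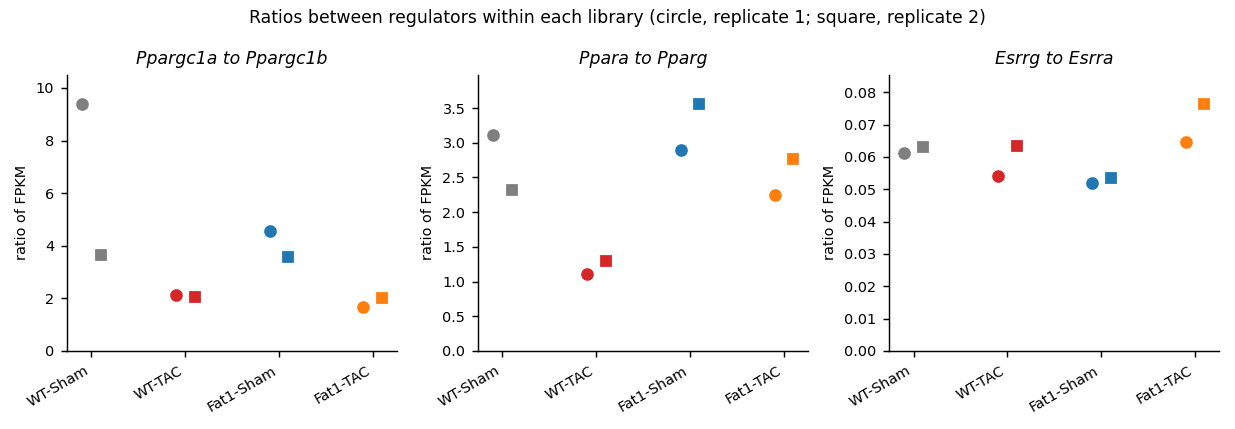
Ratio of FPKM (y axes from 0) between paired regulators within each library, by group (x axis), with 1 point per library. Ppargc1a to Ppargc1b was 1.67 to 2.14 with TAC and 3.58 to 9.39 in sham hearts, Ppara to Pparg was 1.10 and 1.29 in WT-TAC and at least 2.25 elsewhere, and Esrrg to Esrra was highest in Fat1-TAC.

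Among the PPARs, Pparg varied most between groups. Pparg (chr6:115360951-115490399, plus strand) encodes the master regulator of fat cell differentiation and is a minor PPAR of heart muscle. Its FPKM was 11.1 and 11.4 in WT-Sham, 16.8 and 27.3 in WT-TAC, 13.0 and 9.81 in Fat1-Sham, and 9.62 and 9.67 in Fat1-TAC. Both WT-TAC libraries exceeded the other 6, and both Fat1-TAC libraries were below them all. The log2 fold change was 0.88 in WT-TAC versus WT-Sham (SE 0.25, limma adjusted p = 0.175) and -0.21 in Fat1-TAC versus Fat1-Sham (SE 0.25, limma adjusted p = 1). Between the TAC groups, the difference of Fat1-TAC from WT-TAC was -1.08 (SE 0.25, limma adjusted p = 0.128), and the interaction was -1.09 (SE 0.36, limma adjusted p = 0.495). The size of Fat1-TAC versus WT-TAC depended on the scale and on single libraries. It was -1.41 (limma adjusted p = 0.0726) without WT-TAC1 and -0.74 (limma adjusted p = 0.0108) without WT-TAC2, 2 fits in which 1 library stands for WT-TAC and is assumed to vary like the other groups, and which called 0.18% and 53.8% of all genes. Scaling to cardiomyocyte genes gave a call at -1.62 (limma adjusted p = 0.0725; 2.47% of all genes), whereas median-of-ratios scaling gave -0.64 (limma adjusted p = 0.283) and quantile normalization -0.58 (limma adjusted p = 0.342). With those 2 scalings WT-TAC versus WT-Sham was 0.43 and 0.39. Averaged over the surgeries, the genotype difference was -0.53 (SE 0.18, limma adjusted p = 0.287).

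Of the 11 adipocyte genes, all but Fabp4 and Lpl were highest in the same 2 libraries as Pparg, as were the airway genes. The summed adipocyte genes were not. The airway markers Bpifa1, Cdh1, Foxj1, Krt8 and Scgb1a1 were called by limma, higher in WT-TAC versus WT-Sham and lower in Fat1-TAC versus WT-TAC. Adipoq, which encodes the fat cell hormone adiponectin, had an FPKM of 100 and 120 in WT-TAC, 28.1 and 35.1 in WT-Sham, 42.5 and 9.04 in Fat1-Sham, and 0.818 and 40.7 in Fat1-TAC. Both WT-TAC libraries were again the highest, but the Fat1-TAC libraries, almost equal in Pparg, differed widely in Adipoq. Ucp1, the uncoupling protein of brown fat, was highest in WT-TAC2 at 102 FPKM, where Pparg also peaked, and was 39.4 in WT-TAC1, 0.0 and 0.943 in Fat1-TAC and 0.0313 to 44.0 in the sham libraries. The sum of 11 adipocyte genes was 1914 to 2997 FPKM over the 8 libraries, lowest in WT-TAC1, and was carried by Lpl, which heart muscle makes too. The median over the 11 genes of the log2 difference from the sham mean reached 1.84 and 1.96 in the WT-TAC libraries, above the other 6. Their part in the Pparg difference was not tested. The genes whose log2 levels were most like Pparg over the 8 libraries were Lypd2 (Pearson r = 0.969), Mecr (0.969) and 1700037H04Rik (0.966). Lypd2 was 13.5 and 38.2 FPKM in WT-TAC and 0.993 to 3.55 in the other libraries, and Mecr, an enzyme of mitochondrial fatty acid synthesis, was 30.7 and 35.5 against 21.7 to 27.7.

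Ppara (chr15:85734983-85802819, plus strand) encodes the main PPAR of heart muscle and a driver of fatty acid oxidation genes. Its FPKM was 34.5 and 26.4 in WT-Sham, 18.6 and 35.3 in WT-TAC, 37.7 and 34.9 in Fat1-Sham, and 21.6 and 26.7 in Fat1-TAC. The fat-1 groups did not overlap, and the WT groups did, since WT-TAC1 and WT-TAC2 held the lowest and the second highest value. The log2 fold change with TAC was -0.57 in fat-1 hearts (SE 0.30, limma adjusted p = 1) and -0.23 in WT hearts (SE 0.30, limma adjusted p = 0.592), where it turned to 0.22 without WT-TAC1 and to 0.27 after scaling to cardiomyocyte genes. Averaged over the genotypes it was -0.40 (SE 0.21, limma adjusted p = 0.341), and -0.18 without WT-TAC1. The ratio of Ppara to Pparg was 1.10 and 1.29 in WT-TAC and 2.25 to 3.56 in the other 6 libraries.

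Ppard (chr17:28232700-28301474, plus strand), the widely expressed PPAR, and Rxra (chr2:27676440-27762957, plus strand), 1 of the retinoid X receptors that pair with PPARs, stayed within narrow ranges of deposited FPKM. Ppard lay between 18.3 (Fat1-TAC1) and 23.4 FPKM (WT-TAC1), and Rxra between 29.8 (Fat1-TAC1) and 40.7 FPKM (WT-TAC2). Both were lower in each Fat1-TAC library than in each Fat1-Sham library, by a log2 fold change of -0.12 (SE 0.15) for Ppard and -0.23 (SE 0.17) for Rxra, with a limma adjusted p of 1 for each. Averaged over the genotypes, the differences with TAC were -0.01 and -0.07 (limma adjusted p = 0.947 and 0.738), with unadjusted 95% intervals from -0.26 to 0.24 and from -0.35 to 0.22. After scaling to cardiomyocyte genes both were positive, at 0.22 and 0.17.

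Esrra (chr19:6910977-6921813, minus strand) encodes ERRα, the receptor through which PGC-1α reaches respiratory chain genes. Its FPKM was 180.1 and 192 in WT-Sham, 122 and 187 in WT-TAC, 217 and 223 in Fat1-Sham, and 181 and 183 in Fat1-TAC. Both Fat1-Sham libraries were the highest of the 8 and WT-TAC1 was the lowest. Averaged over the genotypes, the log2 fold change with TAC was -0.28 (SE 0.14, limma adjusted p = 0.336), -0.13 without WT-TAC1 and -0.04 after scaling to cardiomyocyte genes. The genotype difference averaged over the surgeries was 0.25 (SE 0.14, limma adjusted p = 0.370), 0.10 without WT-TAC1, and -0.05 after that scaling. Crat, the carnitine acetyltransferase (r = 0.996), Fermt2 (0.991) and Mfn2, a mitochondrial fusion protein (0.991), followed Esrra most closely over the 8 libraries, and without WT-TAC1 the same 3 had r of 0.980, 0.957 and 0.957. These values describe libraries that share depth and tissue makeup within each point.

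Esrrg (chr1:187608791-188214885, plus strand) encodes ERRγ, the receptor of highly oxidative muscle. Its FPKM was 11.0 and 12.1 in WT-Sham, 6.62 and 11.9 in WT-TAC, 11.2 and 11.9 in Fat1-Sham, and 11.7 and 14.0 in Fat1-TAC. Apart from the low WT-TAC1 and the high Fat1-TAC2, all libraries lay within 11.0 to 12.1. The log2 fold change was -0.34 in WT-TAC versus WT-Sham (SE 0.26, limma adjusted p = 0.369) and 0.04 without WT-TAC1. Fat1-TAC exceeded WT-TAC by 0.48 (SE 0.26, limma adjusted p = 0.223), and by 0.10 without WT-TAC1. The ratio of Esrrg to Esrra was 0.0647 and 0.0763 in Fat1-TAC and 0.0519 to 0.0633 in the other 6 libraries.

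Nrf1 (chr6:30047988-30153458, plus strand) encodes nuclear respiratory factor 1 and was set by a single library. Its FPKM was 25.4 in WT-TAC1 but 6.63 in WT-TAC2, 5.10 and 6.65 in WT-Sham, 6.97 and 7.38 in Fat1-Sham, and 4.99 and 5.82 in Fat1-TAC. All libraries but WT-TAC1 were at or under 7.38. The log2 fold change in WT-TAC versus WT-Sham was 1.06 (SE 0.51, limma adjusted p = 0.202) with both WT-TAC libraries and 0.16 without WT-TAC1, and Fat1-TAC versus WT-TAC was -1.15 (SE 0.51, limma adjusted p = 0.174) and -0.26 without it. The interaction of -1.41 (SE 0.73, limma adjusted p = 0.495) became -0.51. Thymocyte and fast skeletal muscle genes were high in the same library, and their part in the Nrf1 level was not tested.

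Tfam (chr10:71225464-71238280, minus strand) encodes mitochondrial transcription factor A. Its FPKM was 29.7 and 30.3 in WT-Sham, 30.5 and 34.4 in Fat1-Sham, 38.1 and 30.2 in WT-TAC, and 30.5 and 30.8 in Fat1-TAC. Apart from WT-TAC1 and Fat1-Sham2, the libraries lay within 29.7 to 30.8. The averaged log2 fold change with TAC was 0.05 (SE 0.12, limma adjusted p = 0.805), with an unadjusted 95% interval from -0.22 to 0.32.

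Counted by whether the 2 libraries of one group overlapped those of the other, more regulators were lower in Fat1-TAC than in Fat1-Sham (7 of 10: Ppara, Ppard, Pparg, Rxra, Ppargc1a, Esrra and Nrf1) than higher (Ppargc1b alone). Of all tested genes 48.3% did not overlap in this comparison, 21.5% being lower. In Fat1-Sham versus WT-Sham, 6 of 10 were higher (Ppara, Rxra, Ppargc1b, Esrra, Nrf1 and Tfam) and 0 lower, and 32% of all genes did not overlap, 15.5% being higher. These counts compare 2 libraries with 2 and the genes share those libraries. In WT-TAC versus WT-Sham only Pparg, which was higher, did not overlap, against 59.6% of all genes, 52.5% being higher. In Fat1-TAC versus WT-TAC 3 regulators were lower (Ppard, Pparg and Nrf1), and 66.4% of all genes did not overlap, 57.1% being lower. Over all 4 TAC and 4 sham libraries, and over all 4 fat-1 and 4 WT libraries, 0 of 10 separated, against 9.28% and 5.54% of all genes.

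The scale on which the WT-TAC libraries were read changed this picture. The median log2 fold change of all tested genes was 0.39 in WT-TAC versus WT-Sham and -0.40 in Fat1-TAC versus WT-TAC, while it was 0.03 in Fat1-TAC versus Fat1-Sham. When each library was scaled to its 9 cardiomyocyte genes, WT-TAC1 received a factor of 0.571 and the other libraries 0.992 to 1.15. On that scale Ppara in WT-TAC1 became 32.5, Esrra 214, Esrrg 11.6 and Ppargc1a 28.8, all inside or above the range of the sham libraries or, for Ppargc1a, just below it. Nrf1 and Tfam in WT-TAC1 moved further from the rest, to 44.5 and 66.8. Ppargc1b then separated the surgeries, at 11.4 to 15.4 with TAC and 6.56 to 11.2 in sham hearts, as did no regulator before scaling. Of all tested genes 6.25% were higher in all TAC libraries on that scale. In fat-1 hearts, whose cardiomyocyte sums were 49515 to 58153 FPKM, 7 of 10 were again lower with TAC, with Tfam in place of Pparg, and Ppargc1b and Esrrg were higher, where 25.8% of all genes were lower and 22.1% higher.

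The other counts of groups that did not overlap moved with that scale too. In WT-TAC versus WT-Sham, 7 of 10 were higher (Ppara, Ppard, Pparg, Rxra, Ppargc1b, Nrf1 and Tfam) in place of Pparg alone, beside 70.6% of all genes. In Fat1-TAC versus WT-TAC, 8 of 10 were lower, all but Ppargc1b and Esrrg, in place of 3, beside 81.8% of all genes. In Fat1-Sham versus WT-Sham, 3 of 10 were higher (Ppara, Ppargc1b and Esrra) in place of 6, beside 8.46% of all genes.

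**Figure D4:**
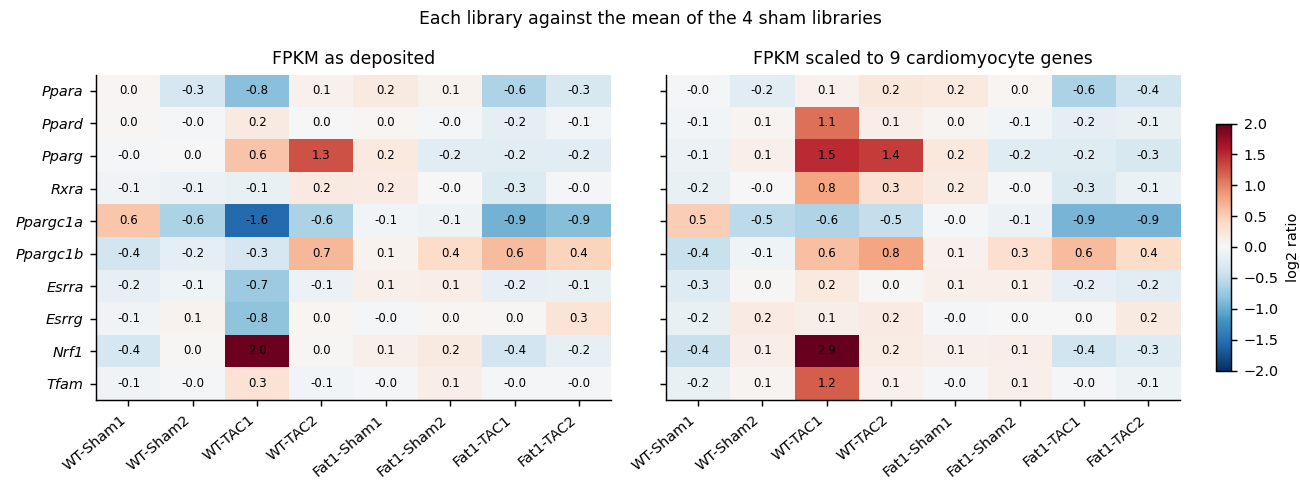
Log2 ratio of each library (x axis) to the mean of the 4 sham libraries for the 10 regulators (y axis), with FPKM as deposited on the left and scaled to 9 cardiomyocyte genes on the right. The low Ppara, Esrra and Esrrg of WT-TAC1 on the left are not seen on the right, and the low Ppargc1a of both Fat1-TAC libraries is on both.

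Of the other genes of the pathway, none of the target genes for fatty acid oxidation or oxidative metabolism was called in any TAC comparison by limma. The 16 fatty acid oxidation genes had a median log2 fold change of -0.46 in WT-TAC versus WT-Sham, with 15 lower. The median over all tested genes was 0.39. At an unadjusted p under 0.05 (limma) and a fold change over 1.5, 2 of the 16 were lower, beside 160 of all 14442 tested genes. Plin5, which coats lipid droplets in oxidative tissue, was the lowest at -0.76, with 51.7 and 54.9 FPKM in WT-Sham, 24.3 and 39.8 in WT-TAC, 58.0 and 70.2 in Fat1-Sham, and 53.3 and 46.0 in Fat1-TAC. Cpt1b, the muscle enzyme that admits fatty acids to the mitochondrion, was the highest at 0.05. The 14 oxidative metabolism genes had a median of -0.52, all lower, 4 of them by the same unadjusted p and fold change. They ran from Cox6a2, a muscle subunit of cytochrome oxidase, at -0.90 to Uqcrc1, a subunit of complex III, at -0.27. The 9 cardiomyocyte genes were lower too, with a median of -0.54, and in WT-TAC2 alone the medians against the sham mean were -0.14 for fatty acid oxidation, -0.20 for oxidative metabolism and -0.12 for cardiomyocyte genes. In Fat1-TAC versus Fat1-Sham the medians were -0.16, -0.07 and 0.06. In Fat1-TAC versus WT-TAC they were 0.49, 0.46 and 0.65, beside -0.40 for all tested genes. There 16 of 16, 13 of 14 and 9 of 9 genes were higher. At an unadjusted p under 0.05 (limma) and a fold change over 1.5 these were 6, 5 and 4, beside 1.72% of all tested genes. In Fat1-Sham versus WT-Sham the medians were 0.15, 0.04 and 0.09, beside -0.015 for all tested genes.

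**Figure D5:**
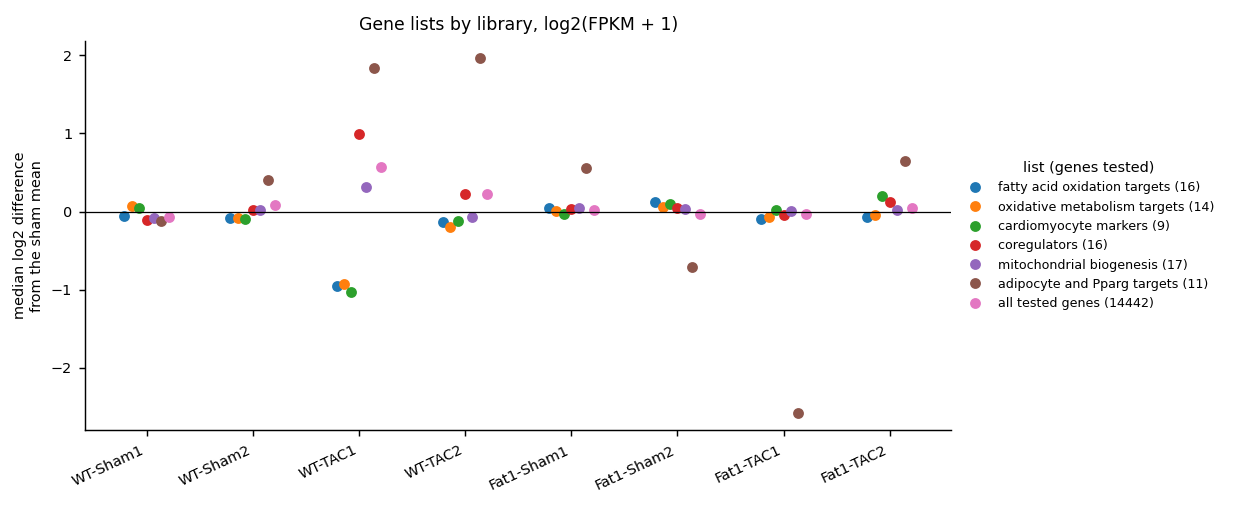
Median over each gene list of the log2(FPKM + 1) difference from the mean of the 4 sham libraries (y axis) in every library (x axis). Fatty acid oxidation, oxidative metabolism and cardiomyocyte genes all lie near -1 in WT-TAC1 and within 0.20 of 0 in the other libraries, and adipocyte genes spread from -2.57 in Fat1-TAC1 to 1.96 in WT-TAC2.

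Among the 10 fasting-type targets of the PPARs that were tested, 1 gene was called, in Fat1-TAC versus WT-TAC alone. Its adjusted p (limma) was just under the threshold of 0.1, and 1.43% of all tested genes were called there. Pdk4, the kinase that shuts glucose carbon out of oxidation and an established PPAR and ERR target, had an FPKM of 172 and 226 in WT-Sham, 256 and 352 in Fat1-Sham, 69.9 and 90.8 in WT-TAC, and 196 and 80.7 in Fat1-TAC. Each WT-TAC library was below each sham library, and Fat1-TAC1 stayed within the sham range. Averaged over the genotypes, its log2 fold change was -1.27 (SE 0.29, limma adjusted p = 0.196). Angptl4, a PPAR target that inhibits lipoprotein lipase, was that gene: it was 3.16 and 3.73 FPKM in Fat1-TAC against 18.5 and 17.4 in the WT-TAC libraries, a difference of -2.10 on the log2 scale (SE 0.41, limma adjusted p = 0.0997). Its WT-Sham libraries were at 8.76 and 9.60, and Fat1-Sham1 at 16.9 exceeded Fat1-Sham2 at 5.70.

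The other lists of pathway genes had no call. The 16 coregulators had a median of 0.66 in WT-TAC versus WT-Sham, 7 of them higher at an unadjusted p under 0.05 (limma) and a fold change over 1.5, where 22.7% of all tested genes were higher and the median of all was 0.39. They ran from Perm1, a muscle coactivator downstream of PGC-1 and ERR, at -0.60 to Nrip1, the corepressor RIP140, at 1.29. Nrip1 was 32.1 FPKM in WT-TAC1 and 5.74 to 10.3 in the other libraries, and Perm1 was 37.1 in WT-TAC1, 66.7 to 74.9 in the other TAC libraries and 71.1 to 101 in sham hearts. The medians in the same comparison were 0.24 for 10 partner receptors (Nr4a1 at 0.99, Rxrg at -0.69), 0.34 for 12 upstream regulators (Creb1 at 1.22, Klf15 at -0.25) and 0.22 for 17 mitochondrial biogenesis genes (Gabpb2 at 1.18, Tefm at -0.25), each below the median of all genes. Creb1 was 55.3 FPKM in WT-TAC1 and 10.9 to 16.0 elsewhere, and Gabpb2 was 33.2 in WT-TAC1 and 5.92 to 8.78 elsewhere, so both followed the pattern of Nrf1. In WT-TAC2 alone the medians against the sham mean were 0.22 for coregulators, 0.13 for partner receptors, 0.11 for upstream regulators and -0.07 for mitochondrial biogenesis, beside 0.22 for all tested genes. In Fat1-TAC versus Fat1-Sham the medians of the 4 lists were 0.02, -0.04, -0.09 and 0.03.

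The genes most like Ppargc1a over the 8 libraries were the mitochondrial ribosomal RNAs mt-Rnr1 (Pearson r = 0.974 of log2 levels) and mt-Rnr2 (0.970), and Cabp1 (0.957), among 9449 genes. mt-Rnr1 was 142 and 56.5 FPKM in WT-Sham, 105 and 77.4 in Fat1-Sham, 37.3 and 65.2 in WT-TAC, and 48.5 and 48.3 in Fat1-TAC. As for Ppargc1a, WT-Sham1 was highest, WT-TAC1 lowest and WT-Sham2 level with the TAC libraries, and without WT-TAC1 the r of mt-Rnr1 was 0.974. All genes of mitochondrial DNA together held 27.6% of the fragments in Fat1-TAC1, the highest share. Their share was 27.5% in WT-Sham1 and lowest in WT-TAC1 at 11.7%. The cause of the likeness was not tested. Nrf1 was most like Arl4c (r = 0.998), at 28.9 FPKM in WT-TAC1 and 3.08 to 4.76 elsewhere, and Brd3 (0.995). Ppargc1b was most like Tpi-rs11 (0.965), Mettl9 (0.960) and Lrfn4 (0.950), and Ppara was most like Gm2830 (0.965), Clpb (0.960), a mitochondrial disaggregase, and Mtch2 (0.954).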

How the data were processed

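The authors deposited 1 FPKM value per gene and library for 25929 genes in 8 libraries. Their methods state quality control and mapping of clean reads to a reference transcriptome, and the submitters' processing notes name HISAT2 and mm10/GRCm38. The counting program and annotation are not given in the sources used here. The methods name whole hearts and the labels ventricular tissue. Gene positions are those of GENCODE M21. Whole fragments were recovered for 25927 genes by finding 1 length per gene at which all libraries give whole numbers.

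Genes that reached 1 FPKM in 2 or more libraries were tested on the log2(FPKM + 1) scale, and limma (version 3.58.1, R 4.3.3; lmFit, eBayes with trend) fitted 4 group means over all 8 libraries, with Benjamini-Hochberg adjustment over all tested genes. The fit was tested on simulated data without differences in tissue makeup between libraries, so that test does not bear on such differences. Regulators and gene lists were chosen with earlier results of these data known. Genes of a pathway list are named if called or if they had its highest or lowest log2 fold change in WT-TAC versus WT-Sham or for TAC averaged over the genotypes, not every such gene being named, and for a regulator the genes of highest Pearson r among tested genes with a mean of 5 FPKM or more. Adipoq was singled out after its values were seen. Alternatives were other scalings, filters and pseudocounts, limma-voom on recovered fragments, only the groups compared, a replicate block and leaving out each library.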

Additional observations from a re-analysis of the deposited data

Results flagged for a closer look

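Pparg stood out because the TAC and sham libraries lay in opposite order in the 2 genotypes: both WT-TAC libraries (16.8 and 27.3 FPKM) were above both WT-Sham libraries (11.1 and 11.4), and both Fat1-TAC libraries (9.62 and 9.67) were below both Fat1-Sham libraries (13.0 and 9.81). The difference itself, the interaction of genotype and surgery, was -1.09 on the log2 scale (SE 0.36) and did not pass the limma test (adjusted p = 0.495, Benjamini-Hochberg). In fat-1 hearts the gap between the nearest libraries, 9.81 and 9.67 FPKM, was smaller than the spread within Fat1-Sham. After scaling to cardiomyocyte genes the fat-1 groups overlapped, at 12.1 and 8.79 in Fat1-Sham and 8.80 and 8.38 in Fat1-TAC. Of all tested genes, 52.5% were higher in both WT-TAC than in both WT-Sham libraries. In fat-1 hearts 21.5% were lower with TAC in the same way, and the share with both was not counted.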

How the results depend on the processing

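Of 527 values of 27 log2 fold changes under alternatives, 479 kept their direction and side of the threshold, 19 gained a call and 29 changed sign, in 10 of the 27. With single libraries left out, the number of regulators called, 0 with all libraries, ranged from 0 to 5 in WT-TAC versus WT-Sham, 0 to 4 in Fat1-TAC versus WT-TAC, 0 to 3 for the interaction and for TAC averaged over the genotypes, and 0 to 2 for fat-1 averaged over the surgeries. The highest counts came without WT-TAC2, where WT-TAC1 alone stands for its group and is assumed to vary like the other groups, and where 50.5%, 53.8%, 45.8%, 25.5% and 25.6% of all tested genes were called in those 5 comparisons. Scaling to cardiomyocyte genes called 1 (Pparg; 2.47% of all genes) in Fat1-TAC versus WT-TAC, and fitting only the groups compared called 1 (Ppargc1a, limma adjusted p = 0.0547; 0.642% of all genes) in Fat1-TAC versus Fat1-Sham. The same scaling with WT-TAC1 left out, so that WT-TAC2 alone stands for its group on the same assumption, was chosen after the data were seen and called 1 (Pparg) in WT-TAC versus WT-Sham, in Fat1-TAC versus WT-TAC and for fat-1 averaged over the surgeries, where 0.439%, 1.78% and 0.992% of all genes were called.

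Scaling to cardiomyocyte genes turned Ppargc1a to -0.37 and Ppargc1b to -0.18 in Fat1-TAC versus WT-TAC, Esrrg there to -0.043 and in WT-TAC versus WT-Sham to 0.13, Ppara in the latter to 0.27, the Ppargc1a interaction to -0.31, Esrra averaged over the surgeries to -0.0454, and Ppard and Rxra averaged over the genotypes to 0.22 and 0.17. With WT-TAC1 also left out the same results were -0.44, -0.28, -0.0641, 0.15, 0.34 and -0.37, and Rxra was 0.0556. Tfam averaged over the genotypes turned to -0.21 with median-of-ratios scaling and -0.14 with quantile normalization. With single libraries left out, the log2 fold changes ranged from -0.26 to 0.62 for Ppargc1a and -0.11 to 0.80 for Ppargc1b in Fat1-TAC versus WT-TAC, -0.36 to 0.81 for the Ppargc1a interaction, -0.67 to 0.22 for Ppara and -0.72 to 0.0377 for Esrrg in WT-TAC versus WT-Sham, and, averaged over the genotypes, -0.0544 to 0.0289 for Ppard, -0.14 to 0.0135 for Rxra and -0.0353 to 0.13 for Tfam. The cause of these changes was not tested.

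With the replicate number as a replicate block, 0 regulators were called in each comparison and Ppargc1a with TAC averaged over the genotypes stayed at -0.90 (adjusted p = 0.368, limma). Deviations of same-numbered libraries correlated at -0.14 to 0.02, which gave no sign that the numbers pair the samples. With 2 libraries a group, these values cannot exclude a shared batch. Depth bore most on Nrf1, whose 134 fragments in WT-Sham1 carry the largest counting error of the regulators.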
